A study of Mus musculus with 2 samples.

Results

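The miR-99/100 and miR-125 microRNAs are the partners of let-7 in 3 paralogous gene clusters of the mouse genome. The 9 mature forms described here were taken by name from the 1909 mature microRNAs counted by small RNA sequencing. They are mmu-miR-99a-5p, mmu-miR-99b-5p, mmu-miR-99b-3p, mmu-miR-100-5p, mmu-miR-125a-5p, mmu-miR-125a-3p, mmu-miR-125b-5p, mmu-miR-125b-1-3p and mmu-miR-125b-2-3p, written below without the species prefix. All 9 were detected in both libraries.

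The cells were vascular smooth muscle cells grown from the thoracic aorta of male mice 10 to 12 weeks old, in DMEM/F-12 medium with 10% fetal bovine serum and antibiotics. The diabetic group was db/db, homozygous for a defect of the leptin receptor, and was labelled BKS.Cg-m+/+Leprdb/J. Mice of the db/db genotype become obese and develop type 2 diabetes. The control group was db/+, labelled Lepr+/-, so the control cells also carry a copy of the mutant allele. The label of db/+ names no strain background. Each group had 1 library, and the number of mice or cultures behind it is not given in the sources used here. Every difference below is therefore between these 2 libraries. It could not be tested as a difference between genotypes. The db/+ cells are called control and the db/db cells diabetic.

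The control library held 25915732 microRNA counts and the diabetic library 24295112. Levels are given as CPM, the counts of a microRNA per 1000000 microRNA counts of its library. Ratios are db/db CPM over db/+ CPM with an exact conditional 95% interval, and shares carry an exact binomial 95% interval by the method of Clopper and Pearson. The sources used here name no molecular identifiers to mark PCR copies, so these intervals cover counting error only. The smooth muscle markers miR-143 and miR-145a, 4 mature arms in all, summed to 1656 CPM in control cells and 1567 CPM in diabetic cells. The 2 arms of endothelial miR-126a summed to 0.270 and 2.92 CPM, 4 blood markers to 6.44 and 6.63 CPM with 2 of the 4 at 0 in each library, and 6 epithelial markers to 0.270 and 0.906 CPM with 2 of the 6 at 0 in each. The liver marker miR-122-5p had 10.2 and 18.0 CPM. The part of other cell types in the ratios below was not tested. In a culture sequenced in bulk, fewer cells with a microRNA and less of it per cell cannot be told apart.

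A microRNA pairs with messenger RNAs mainly through its seed, bases 2 to 8 from its 5′ end, so forms with the same seed are expected to share targets. A hairpin precursor yields a 5p and a 3p arm. The arm that is kept in the silencing complex is the guide, and the other, the passenger, is mostly degraded. Here the 5p arms, which held most reads of each hairpin, are called guides and the 3p arms passengers. The miR-125 family is the vertebrate counterpart of lin-4, the first microRNA described in worms. In db/db smooth muscle, miR-125b is known as a regulator of the histone methyltransferase Suv39h1 and of inflammatory genes. Targets known for miR-99 and miR-100 include the growth kinase mTOR. Let-7, the third partner, restrains proliferation.

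The mature sequences below show which forms can be told apart by sequencing and which share a seed. They are RefSeq's, on GRCm38.p6, and all 9 members matched an entry. Capitals mark the seed.
miR-99a-5p: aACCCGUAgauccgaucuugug
miR-99b-5p: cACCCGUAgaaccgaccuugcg
miR-100-5p: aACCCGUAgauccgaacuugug
miR-125a-5p: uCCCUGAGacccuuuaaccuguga
miR-125b-5p: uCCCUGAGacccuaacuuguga
miR-351-5p: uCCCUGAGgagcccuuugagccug
miR-99b-3p: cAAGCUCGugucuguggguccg
miR-125a-3p: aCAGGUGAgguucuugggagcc
miR-125b-1-3p: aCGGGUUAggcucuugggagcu
miR-125b-2-3p: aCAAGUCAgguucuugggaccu

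The 5 guide arms fall into 2 seed groups, ACCCGUA for miR-99a, miR-99b and miR-100 and CCCUGAG for miR-125a and miR-125b. Between miR-99a-5p and miR-100-5p the only substitution is U16A, counted from 1 at the 5′ end with the base of miR-99a first. Between miR-99a-5p and miR-99b-5p there are 4, namely A1C, U11A, U16C and U21C. The first 13 bases of miR-125a-5p and miR-125b-5p are the same, and their lengths are 24 and 22 bases. The assignment of reads that match several names is not given in the sources used here, so the split between miR-99a-5p and miR-100-5p is less certain than their sum. None of the 9 members had counts identical to those of another name, in contrast to 11 groups among the names with at least 50 counts. Each of the 4 passenger arms has a seed of its own among the members. With the seed of miR-99b-3p there is also miR-99a-3p, and the miR-125 seed is carried by miR-351-5p of chromosome X and by the late-numbered miR-6367 and miR-6394.

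Positions are those of the precursor hairpins in GENCODE M21 (GRCm38, which is mm10), and all 9 hairpins of the clusters lie on the plus strand. The chromosome 17 cluster spans 692 bases within the gene Spaca6. It holds Mir99b (chr17:17830188-17830257, intron), Mirlet7e (chr17:17830352-17830444, intron) and Mir125a (chr17:17830812-17830879, overlapping an annotated exon). The chromosome 16 cluster spans 47408 bases in introns of the non-coding gene Mir99ahg, with Mir99a (chr16:77598936-77599000), Mirlet7c-1 (chr16:77599657-77599750) and Mir125b-2 (chr16:77646273-77646343). The chromosome 9 cluster spans 50578 bases in introns of the non-coding genes 3110039I08Rik and Gm49317, with Mir100 (chr9:41531425-41531504), Mirlet7a-2 (chr9:41536716-41536811) and Mir125b-1 (chr9:41581926-41582002), the last also within an exon of the sense intronic gene Gm28119. The mature miR-125b-5p is the same from Mir125b-1 and Mir125b-2, so its reads cannot be assigned to chromosome 9 or 16. Its 3p arms differ and can be.

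The 9 forms summed to 159195 counts in control cells and 166426 in diabetic cells, which is 0.614% and 0.685% of all microRNA counts. The let-7 guide strands and miR-98 took 81.4% and 81.3% of all counts, and outside them the 9 forms made up 3.31% in control cells and 3.66% in diabetic cells. The ratio of the sums was 1.115 (95% interval 1.108 to 1.123). By level, miR-125b-5p stood first among the members in each library, followed by miR-99b-5p, miR-125a-5p, miR-99a-5p and miR-100-5p. The passenger arms lay below all 5 guide arms, from miR-99b-3p down to miR-125b-2-3p. That order was the same in both libraries apart from miR-125a-3p and miR-125b-1-3p. In db/+ these had 19.5 CPM (17.9 to 21.3) and 19.3 CPM (17.6 to 21.02), which do not differ beyond counting error. In db/db they had 15.7 CPM (14.2 to 17.4) and 24.9 CPM (23.0 to 27.0). All other neighbours in the order had counting intervals apart, although with 1 library a group the spread between cultures is unknown. Reads of different microRNAs are ligated and amplified with different efficiency, so the order is one of reads.

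**Figure D1:**
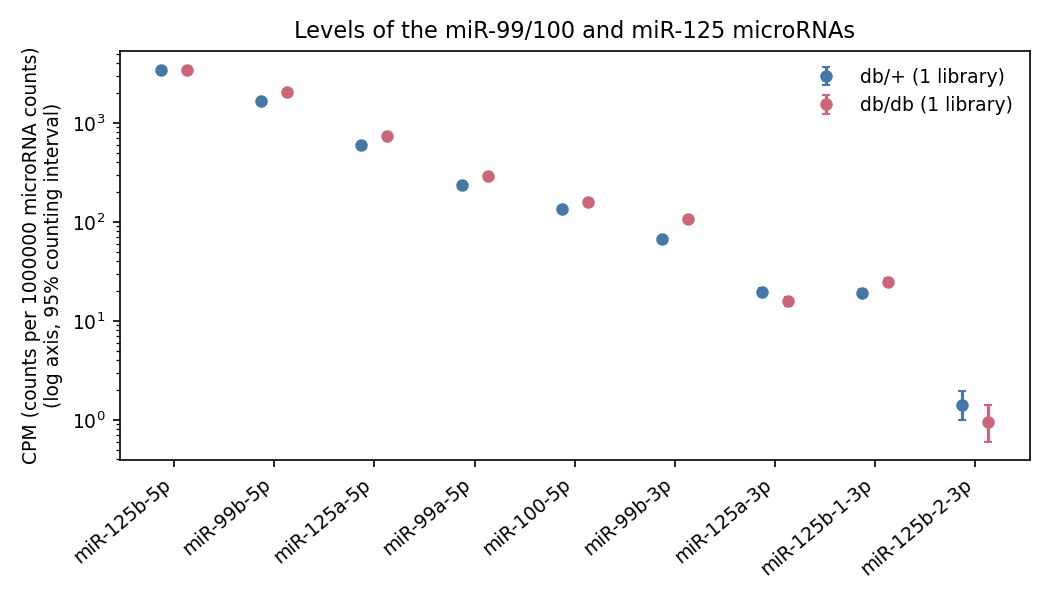
Level of each of the 9 microRNAs in the db/+ library (blue) and the db/db library (red), in CPM on a log axis, with 95% counting intervals that are often smaller than the points. The levels run from 3407 and 3443 CPM for miR-125b-5p to 1.43 and 0.947 CPM for miR-125b-2-3p, and the order by db/+ level is kept in db/db except for miR-125a-3p and miR-125b-1-3p.

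Size of change was read against all microRNAs that reached 50 counts in at least 1 library, 356 in number, of which 8 were members and only miR-125b-2-3p was left out. By the size rule, 2-fold in either direction, 0 of the 8 members were higher and 0 lower, where 4.49% and 13.5% of the 356 were. With 1 library a group no test could be run beside this count. At 1.5-fold, 1 of the 8 was higher, miR-99b-3p, against 13.5% of the 356, and 0 were lower, against 24.2%. Ratios were above 1 for 7 of the 8 and below 1 for 1, where 43% and 57% of the 356 were. The counting interval lay above 1 for the same 7 and below 1 for miR-125a-3p, and the shares over the 356 were 31.7% and 44.1%. The median log2 ratio of the 8, with 0.5 counts added, was 0.30, and that of the 356 was -0.14. Members share hairpins and clusters and may share reads, so they are not 8 independent observations.

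**Figure D2:**
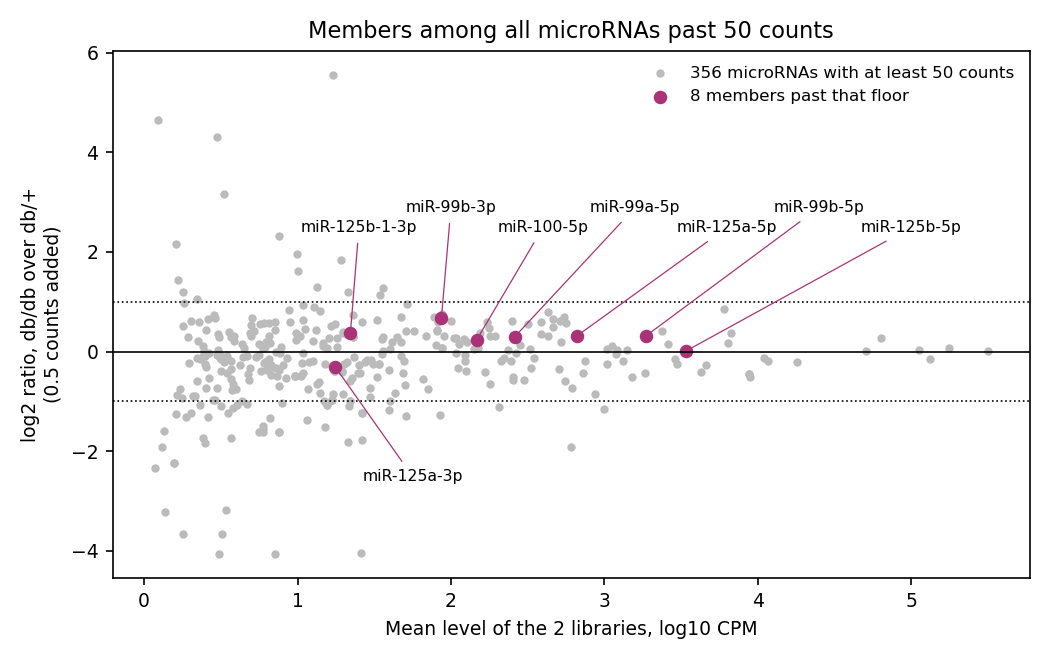
Log2 ratio of db/db over db/+ (0.5 counts added) against the mean level of the 2 libraries in log10 CPM, for the 356 microRNAs past the floor of 50 counts (grey) and the 8 members among them (purple). The members lie between -0.31 (miR-125a-3p) and 0.67 (miR-99b-3p), inside the dotted lines at 2-fold.

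The miR-99/100 guides were higher in the diabetic library, with ratios from 1.17 to 1.24. The most abundant, miR-99b-5p, had 43162 counts in control cells (1665 CPM) and 50331 in diabetic cells (2072 CPM), a ratio of 1.24 (1.23 to 1.26). For miR-99a-5p the counts were 6063 (234 CPM) and 6974 (287 CPM), a ratio of 1.23 (1.19 to 1.27). The third, miR-100-5p, had 3504 (135 CPM) and 3852 (159 CPM), a ratio of 1.17 (1.12 to 1.23). The interval of miR-99a-5p overlapped those of both others.

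Summed over the seed ACCCGUA, the level was 2035 CPM in control cells and 2517 CPM in diabetic cells, a ratio of 1.24 (1.22 to 1.25). This sum does not depend on how reads were split among the 3 names, provided each read was counted once. Whether a read that matches several names was counted on each is not given in the sources used here. Within that sum the counting intervals of each name's share overlapped between the libraries, which does not show that the shares were equal. The ratio interval of miR-100-5p ended at 1.2279, just below the start of that of miR-99b-5p at 1.22796. The share of miR-99b-5p was 81.9% (81.5 to 82.2) in control cells and 82.3% (81.99 to 82.6) in diabetic cells. For miR-99a-5p it was 11.5% and 11.4%, and for miR-100-5p 6.65% and 6.30%.

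The ratios of the 2 miR-125 guides differed beyond counting error. The level of miR-125b-5p was nearly the same in both libraries, with 88302 counts in control cells (3407 CPM) and 83658 in diabetic cells (3443 CPM), a ratio of 1.01 (1.001 to 1.02). For miR-125a-5p the counts were 15388 (594 CPM) and 18016 (742 CPM), a ratio of 1.25 (1.22 to 1.28). Summed over both names, the level was 4001 CPM in control cells and 4185 CPM in diabetic cells, a ratio of 1.05 (1.04 to 1.06). The share of miR-125b-5p in that sum was 85.2% (84.9 to 85.4) in control cells and 82.3% (82.04 to 82.5) in diabetic cells, a comparison within each library that no scaling alters.

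Among the other microRNAs with the miR-125 seed, miR-351-5p had 561 counts in control cells (21.6 CPM) and 1151 in diabetic cells (47.4 CPM), a ratio of 2.19 (1.98 to 2.43). It is a rodent microRNA of the X-linked miR-322 and miR-503 cluster. At these levels it added little to the seed as a whole, whose ratio with it was 1.05. The other seed relatives, miR-6367 and miR-6394, had 0 counts in both libraries, which allows up to 0.116 CPM in control cells and 0.123 CPM in diabetic cells, taking 3 counts as the limit.

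The passenger arms spanned a wider range of ratios than the guides, 0.663 to 1.59 against 1.01 to 1.25. For miR-99b-3p the counts were 1734 in control cells (66.9 CPM) and 2584 in diabetic cells (106 CPM), a ratio of 1.59 (1.495 to 1.69), the highest of the 9. For miR-125b-1-3p, whose reads can be assigned to the chromosome 9 locus, they were 499 and 606, a ratio of 1.30 (1.15 to 1.46). Its level lay higher in diabetic cells while the guide shared with chromosome 16 had a ratio of 1.01. The output of the chromosome 9 locus as a whole was not tested.

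In the other direction lay miR-125a-3p, with 506 counts in control cells (19.5 CPM) and 382 in diabetic cells (15.7 CPM), a ratio of 0.805 (0.703 to 0.922). It was the only member past the floor with a ratio below 1. The chromosome 16 passenger miR-125b-2-3p had 37 and 23 counts, a ratio of 0.663 with an interval of 0.376 to 1.15 that includes 1. A difference was not detectable at that depth. Of the locus-specific miR-125b passenger counts, the chromosome 9 hairpin supplied 93.1% (90.6 to 95.1) in control cells and 96.3% (94.6 to 97.7) in diabetic cells. These intervals overlap at their ends, which does not show an equal balance of the loci. The ratio intervals of the 2 passengers lay just apart, 1.149 to 1.461 for miR-125b-1-3p and 0.376 to 1.146 for miR-125b-2-3p.

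**Figure D3:**
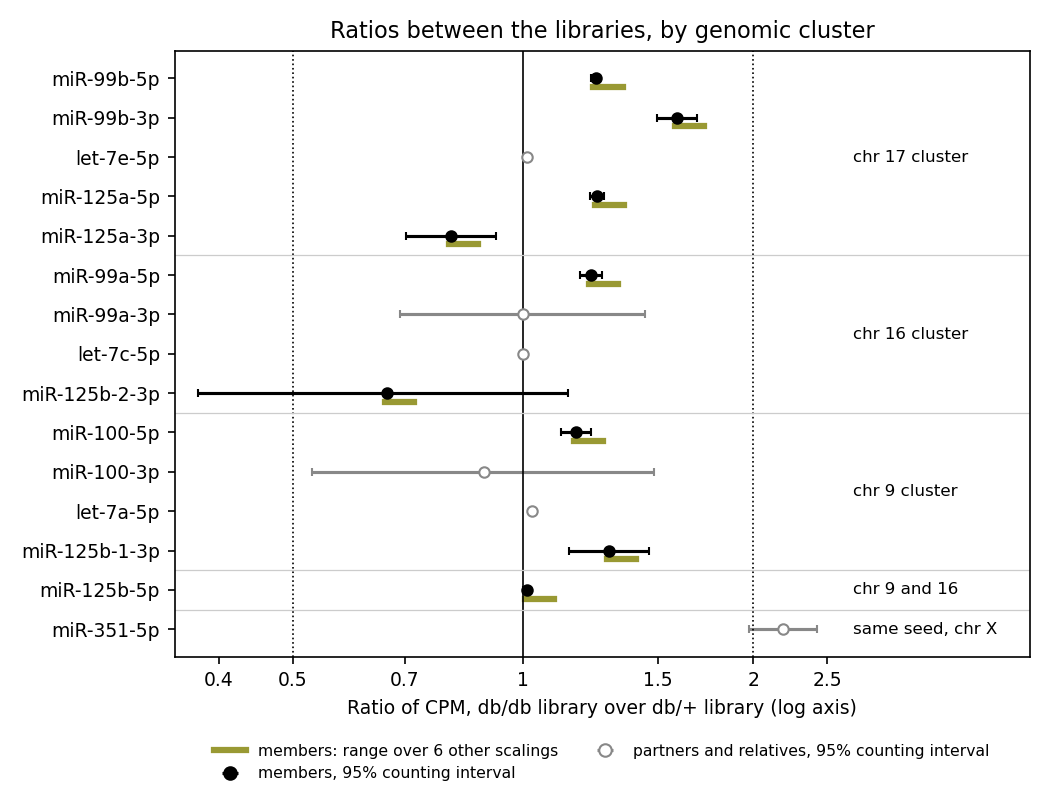
Ratio of db/db CPM to db/+ CPM on a log axis for the 9 members (black), their let-7 partners, the other arms of the hairpins and the seed relative miR-351-5p (grey), with 95% counting intervals. Bars under the members give the range over 6 other scalings; dotted lines mark ratios of 0.5 and 2, between which all 9 member ratios lie, and let-7a-5p and let-7c-5p are drawn in the clusters although other chromosomes encode them too.

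Within the chromosome 17 cluster the guides of both partners of let-7e had higher ratios than let-7e-5p, whereas the passenger miR-125a-3p had a lower one (0.805). That cluster is the only 1 of the 3 in which the annotation used here gives every guide a single hairpin. Its let-7e-5p had 1314597 counts in control cells (50726 CPM) and 1245300 in diabetic cells (51257 CPM), a ratio of 1.01 (1.008 to 1.013), against 1.24 for miR-99b-5p and 1.25 for miR-125a-5p. Set against each other, miR-99b-5p and miR-125a-5p differed in proportion by less than counting error, with 73.7% (73.4 to 74.1) of their joint counts on miR-99b-5p in control cells and 73.6% (73.3 to 73.97) in diabetic cells. The share of let-7e-5p among the 3 guides was 95.7% in control cells and 94.8% in diabetic cells, with intervals apart. Reads of let-7e-5p may include some of let-7a-5p, from which it differs by the substitution U9G (let-7a first) and which had 111791 and 114956 CPM. How far such reads enter the ratio of let-7e-5p was not tested.

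The partner list, set by genomic position, held 6 let-7 forms. Of them 4 passed the floor of 50 counts, and 0 reached 2-fold. Ratios were 1.001 (0.9997 to 1.002) for let-7c-5p, encoded on chromosomes 15 and 16, 1.03 (1.027 to 1.03) for let-7a-5p, encoded on chromosomes 9 and 13, and 0.939 (0.651 to 1.35) for let-7e-3p on 67 and 59 counts. The median log2 ratio of the 4 was 0.01. The let-7 passenger strands of the other clusters were almost absent. There were 4 and 1 counts of let-7c-1-3p and 1 and 0 of let-7a-2-3p, so the let-7 output of the chromosome 16 and 9 clusters cannot be followed through them. The other arms of the miR-99a and miR-100 hairpins were also rare. For miR-99a-3p there were 64 counts in control cells and 60 in diabetic cells, a ratio whose interval was 0.691 to 1.45, and for miR-100-3p 36 and 30, a ratio of 0.889 (0.529 to 1.48). Both intervals include 1, and each also holds the ratio of its guide.

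How the arms of each hairpin were shared out was compared within each library, where scaling plays no part. The hairpin of miR-125a shows the arms that were counted, in capitals, with the guide first (chr17:17830812-17830879, plus strand, RefSeq, GRCm38.p6), and that of miR-125b-1 is given for comparison (chr9:41581926-41582002, plus strand).
Mir125a: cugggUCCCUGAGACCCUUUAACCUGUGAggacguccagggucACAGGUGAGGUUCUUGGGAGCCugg
Mir125b-1: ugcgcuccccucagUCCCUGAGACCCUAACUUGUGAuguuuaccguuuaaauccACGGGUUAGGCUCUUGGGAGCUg

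In the hairpins of miR-99a, miR-99b, miR-100, miR-125a and miR-125b the 5p arm was dominant in both libraries. The passenger share of miR-99b was 3.86% (3.69 to 4.04) in control cells and 4.88% (4.70 to 5.07) in diabetic cells. For miR-125a, from the same cluster, it was 3.18% (2.92 to 3.47) in control cells and 2.08% (1.88 to 2.29) in diabetic cells. The shares of these neighbours thus lay in opposite directions, each by about 1 point (1.02 and -1.11) and each with intervals apart. For miR-125b, with both loci together, the passenger share was 0.603% (0.553 to 0.656) and 0.746% (0.689 to 0.807), again with intervals apart. The shares of miR-99a (1.04% and 0.853%) and miR-100 (1.02% and 0.773%) had overlapping intervals. Over 204 hairpins with at least 50 counts on both arms together in each library, the median absolute difference in 5p share was 0.917 points. The differences of miR-99b and miR-125a thus lay near that median. How many of the 204 had intervals apart was not counted. The 204 hairpins include shallow ones and any balance of arms, and near the limit of 100% a difference in points is compressed. As reads of the 5p arm per read of the 3p arm, miR-125a had 30.4 in control cells and 47.2 in diabetic cells, and miR-99b had 24.9 and 19.5.

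**Figure D4:**
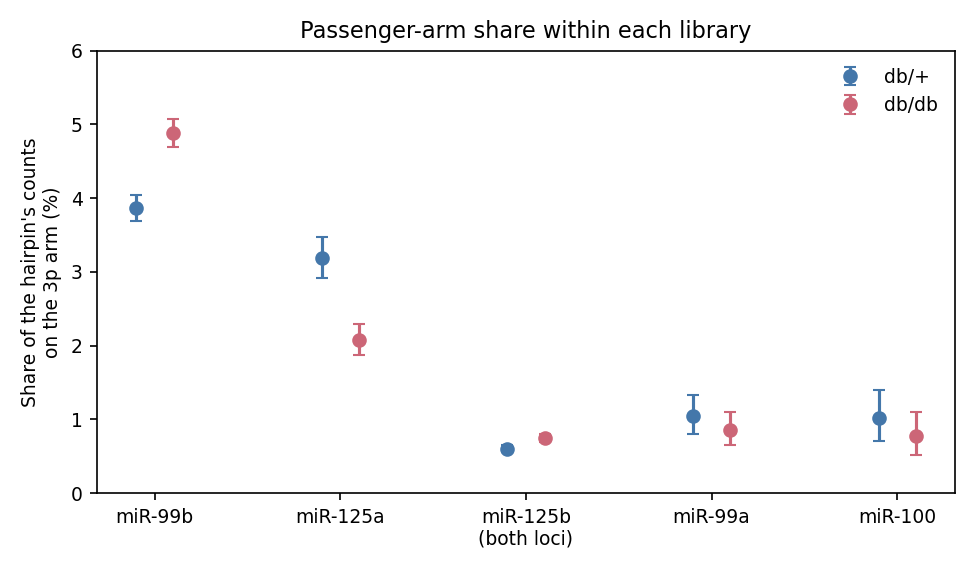
Share of each hairpin's counts on the 3p (passenger) arm, in percent, in the db/+ library (blue) and the db/db library (red), with exact binomial 95% intervals. The share of miR-99b is 3.86% and 4.88%, that of miR-125a 3.18% and 2.08%, and the remaining hairpins lie near or below 1%.

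The microRNAs nearest to miR-125b-5p in level over both libraries were sought among the 313 with at least 50 counts in each, by distance in log2 CPM. They were miR-191-5p (3259 and 2727 CPM, distance 0.34), miR-221-3p (3039 and 2754 CPM, 0.36) and miR-103-3p (4844 and 3633 CPM, 0.51). Nearest to miR-99b-5p were miR-25-3p (2045 and 2726 CPM, distance 0.49), miR-185-5p (2113 and 1560 CPM, 0.53) and miR-30a-5p (1395 and 1415 CPM, 0.61). Likeness over 2 libraries is mostly likeness of level, and the ratios of these 6 ran from 0.738 for miR-185-5p to 1.33 for miR-25-3p.

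Each other scaling multiplied all ratios by a common factor, apart from rounding in the deposited TMM reads. With 5 of 6 other scalings the factor lay above 1, up to 1.09 when the most abundant microRNAs were left out of the total, a shift of 0.12 in the median log2 ratio of all 356 as well. All 5 guides had a ratio above 1 and miR-125a-3p a ratio below 1 under all 6. For miR-125b-5p the ratio ran from 1.004 to 1.10 over them, so its small difference from 1 is of the size of the choice of scaling.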

How the data were processed

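Small RNA from 2 libraries, 1 of db/+ and 1 of db/db smooth muscle cells, was analysed from mature microRNA tables. The tables the authors deposited hold raw counts of reads per mature microRNA, per the file headers. They also hold reads after TMM scaling by the authors, in whole numbers, which were treated as a score and used as 1 alternative scaling. Novoalign, edgeR and mm10 are named, without roles, in the submitters' processing notes. Trimming, mismatch limits and how multiply matching reads were counted are not given in the sources used here. Totals of 25915732 and 24295112 counts scaled the values to CPM. Ratios and shares (Python 3.11.15, scipy 1.17.1) carry exact 95% intervals, and log2 ratios had 0.5 counts added.

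With 1 library per group no count model was fitted and no p-value computed. A size rule (2-fold, at least 50 counts in a library) took its place. Other scalings used edgeR 4.0.16 (TMM, upper quartile) and DESeq2 1.42.0 size factors, the deposited TMM reads, and totals without let-7 or without the most abundant microRNAs. Named microRNAs were all members, their cluster partners, other arms and seed relatives, and the 3 nearest in level to miR-125b-5p and to miR-99b-5p. Of 1909 names, 1623 matched 1 RefSeq mature sequence, and seed groups rest on these. The members and lists were chosen with earlier results of these data known.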

Additional observations from a re-analysis of the deposited data

How the results depend on the processing

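The ratio of the 9 summed members, 1.12, was 1.18 with edgeR TMM and the deposited TMM reads, 1.19 with upper-quartile and DESeq2 factors and 1.21 without the most abundant microRNAs (the 11 names in the top 10 of either library). For the miR-99/100 seed group the ratio of 1.24 became 1.31 with both TMM scalings, 1.32 with upper-quartile and DESeq2 factors and 1.34 without the most abundant. For the 2 miR-125 guides the ratio of 1.05 became 1.11 with both TMM scalings and with DESeq2 factors, 1.12 with upper-quartile factors and 1.14 without the most abundant. These movements follow from the scaling factor. Without let-7 in the total, each of the 3 sums stayed inside its counting interval. The size rule called 0 members under every scaling and at floors of 10, 100 and no counts. At the main setting it called 4.49% of the 356 microRNAs higher and 13.5% lower. For the other scalings and floors such shares were not counted. At 1.5-fold 1 member was higher and 0 lower, against 13.5% and 24.2% of the 356. Calling by a counting interval that excludes 1, chosen after seeing the data, gave 7 higher and 1 lower, against 31.7% and 44.1% of the 356. Of 54 ratios of single members under other scalings, 28 left their counting interval and 26 did not, and 0 crossed 1. Adding 0.1 or 5 counts left all 18 log2 ratios inside theirs. Depth limits miR-125b-2-3p, miR-99a-3p and miR-100-3p. No paired analysis was possible because there was a single library of each genotype, which also left no replicate to leave out.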

Other observations

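Grouped by seed over all matched names, the miR-125 seed, miR-351-5p included, ranked 10 of 680 detected seeds by counts in control cells and 8 in diabetic cells. The miR-99/100 seed ranked 14 in both libraries. Names without a single RefSeq sequence held 2.07% of counts in control cells and 1.81% in diabetic cells and have no place in these ranks. Among them were miR-320-3p (11565 CPM in control cells and 10497 CPM in diabetic cells), above both seeds in each library, and miR-185-5p (2113 and 1560 CPM). The level of miR-185-5p lay above the miR-99/100 seed in control cells and below it in diabetic cells. The ranks therefore hold among matched names only. The seeds directly around miR-125 in control cells were that of miR-221-3p (4115 CPM in control cells and 3922 CPM in diabetic cells) above it and that of miR-191-5p (3259 and 2727 CPM) below it.

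The letters of the miR-125 seed also occur away from the seed position, marked in capitals, in 2 others of the 1623 names matched to 1 sequence. The unmatched names were not searched.
miR-670-5p: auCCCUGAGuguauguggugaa
miR-5103: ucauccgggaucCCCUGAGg
The first had 0 counts in both libraries and the second 2 in control cells and 0 in diabetic cells. Among matched names, microRNAs that hold these letters elsewhere thus added almost nothing to the reads.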
